A study of Homo sapiens with 8 samples.

Results

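H3K36me3, trimethylation of lysine 36 of histone H3, was examined over 7 genes whose proteins read or erase methylation of that lysine. The genes were chosen by name. The peaks were those of the deposited control and knockdown tables that overlap a gene's span on the hg19 genome by 1 bp or more: 27 of 35375 control peaks and 17 of 23488 knockdown peaks. The cells were HepG2, a human hepatocellular carcinoma line, transduced with lentivirus and selected with puromycin to express either a non-specific control short hairpin RNA (shRNA) or a SETD2 shRNA. SETD2 is the enzyme that places H3K36me3 in human cells, so the study compared cells with and without its depletion. The 8 libraries were H3K36me3 immunoprecipitates and input DNA, 2 replicates each per shRNA. The submitters merged both replicates ahead of peak calling, which leaves 1 pooled library per condition, of 47880817 (control) or 67053273 (knockdown) tags after duplicate removal. Replicate spread is therefore unknown and the conditions could not be tested against each other. Intervals are 95% intervals that cover counting error only. How far SETD2 was depleted, whether each line was a single clone, and marker genes of HepG2 were not analysed here.

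As background, SETD2 travels with elongating RNA polymerase II, so H3K36me3 marks the bodies of transcribed genes and tends to rise towards their ends. Reader proteins bind the mark through a PWWP domain or a chromodomain: DNMT3A and DNMT3B, the de novo DNA methyltransferases, MSH6, a mismatch repair protein, and PSIP1 (LEDGF), a transcription coactivator that tethers lentiviral integrase, have PWWP domains, and MORF4L1 (MRG15), a subunit of histone acetyltransferase and deacetylase complexes, has a chromodomain. KDM2A removes the mono- and dimethyl forms at lysine 36 and binds unmethylated CG dinucleotides, and KDM4A removes trimethyl groups from lysines 9 and 36. The data concern the mark on these genes themselves. They do not measure the proteins, their binding or their transcripts.

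In the control, 6 of the 7 genes carried a called peak, DNMT3B being the exception, and in the knockdown all 7 did. Of the combined 445.8 kb of gene span, 52.1% lay inside control peaks and 33.7% inside knockdown peaks, so the knockdown covered 64.7% of the control length. Over the whole lists that share was 48.4%, taken on full peak lengths. The 64.7% counts only the parts of peaks inside the gene spans, so the shares are not like for like. Past the ends of MSH6, PSIP1 and MORF4L1 control peaks ran 33.5, 22.7 and 19.0 kb, and knockdown peaks 5.93, 0.728 and 10.4 kb. The covered share was lower in the knockdown in the 6 genes with a control peak and higher in DNMT3B. For the 5 readers the covered share went from 38.8% to 31.3%, and for both demethylase genes together from 69.5% to 36.8%, a drop that came mostly from KDM2A. Calls depend on the limit. The authors' table gives each peak a false discovery rate (FDR), and 19 of the 27 control peaks stood at 5% or below, against 50.5% of the whole control list. With both lists held to that limit 6 genes still had a control peak, but KDM2A alone had a knockdown peak: 1 of the 17 knockdown peaks passed, close to the 5.30% of all knockdown peaks that did.

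**Figure D1:**
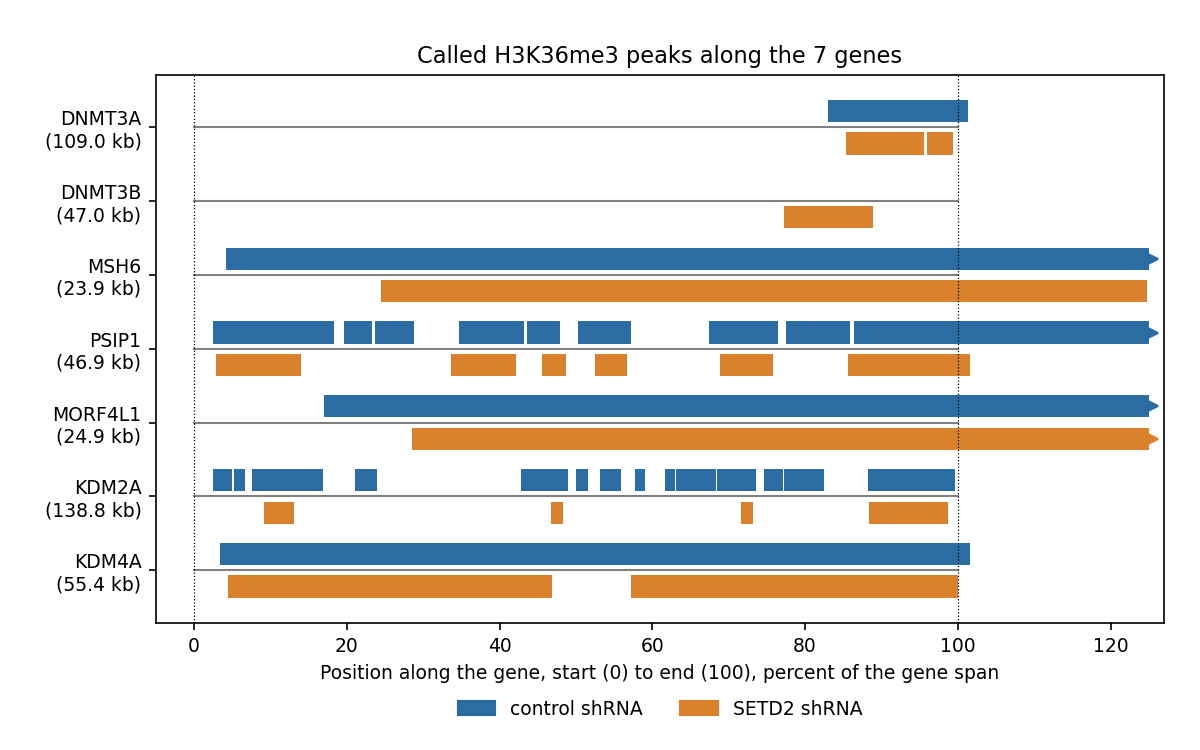
Called H3K36me3 peaks along each gene, from its start (0) to its end (100) in percent of the gene span, with control shRNA peaks above each grey gene line and SETD2 shRNA peaks below it; arrowheads mark peaks that run on past the plotted range. No peak reaches the start of a gene span, MSH6, MORF4L1 and KDM4A are each under 1 long control peak, and KDM2A has 14 control peaks against 4 knockdown peaks.

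Peaks lay inside and towards the ends of the genes. A gene start here is the first base of the gene's span in the direction of its transcription. None of the 7 such starts was inside a peak of either list, and tags at the starts were not analysed. RefSeq lists more than 1 start window for DNMT3A (6), MSH6 (4), PSIP1 (2) and KDM2A (2). Other starts of these genes were not checked against the peaks, so distances and bins below refer to the whole span. In the control the first peak began 0.997 kb after the start of MSH6, 1.18 kb after that of PSIP1, 1.90 kb after that of KDM4A, 3.41 kb after that of KDM2A and 4.22 kb after that of MORF4L1, but 90.4 kb after that of DNMT3A. In the knockdown the first peak began further in for each of these 6 genes, at 5.85 kb in MSH6, 1.36 kb in PSIP1, 2.45 kb in KDM4A, 12.6 kb in KDM2A, 7.11 kb in MORF4L1 and 93.0 kb in DNMT3A. A peak edge is the limit of a call and not of the mark. Such a shift was not looked for over other genes. With each gene cut into 10 bins of equal length from its start, the last 5 bins were covered to a larger share than the first 5 in all 6 genes that had control peaks and in all 7 that had knockdown peaks. The sizes differed: PSIP1 in the control (74.9% of the first 5 bins and 76.1% of the last 5) and KDM4A in the knockdown (85.0% and 85.6%) were nearly even, while KDM2A in the control went from 44.5% to 72.9%. DNMT3B in the knockdown rests on 1 peak with an FDR of 66.4%. Starts and bins of other genes were not counted, so none of this is shown to be particular to the 7 genes. The 250 bases before the gene start are printed for PSIP1, KDM2A and KDM4A, to show the sequence just ahead of starts without a call. Only these have a RefSeq model on GRCh38.p14 that starts at a listed window and is within 50 bp of the hg19 span length. All 7 genes matched the RefSeq table by symbol. The windows are PSIP1 at chr9:15510971-15511220 on the minus strand, KDM2A at chr11:67119013-67119262 on the plus strand and KDM4A at chr1:43649899-43650148 on the plus strand, all on GRCh38.p14 and not on the hg19 of the peaks. Capitals mark CG dinucleotides, the letters that KDM2A recognises when unmethylated.
PSIP1: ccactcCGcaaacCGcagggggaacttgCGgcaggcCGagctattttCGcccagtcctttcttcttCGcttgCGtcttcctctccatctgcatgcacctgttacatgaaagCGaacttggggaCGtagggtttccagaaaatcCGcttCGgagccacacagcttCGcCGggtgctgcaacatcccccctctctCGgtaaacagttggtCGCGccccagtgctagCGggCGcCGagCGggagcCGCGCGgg
KDM2A: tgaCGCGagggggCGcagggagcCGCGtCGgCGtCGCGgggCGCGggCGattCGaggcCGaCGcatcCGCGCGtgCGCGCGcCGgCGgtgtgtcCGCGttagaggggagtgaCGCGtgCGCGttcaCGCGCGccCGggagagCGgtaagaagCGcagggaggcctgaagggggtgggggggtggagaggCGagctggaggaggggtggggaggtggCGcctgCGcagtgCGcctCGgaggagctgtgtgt
KDM4A: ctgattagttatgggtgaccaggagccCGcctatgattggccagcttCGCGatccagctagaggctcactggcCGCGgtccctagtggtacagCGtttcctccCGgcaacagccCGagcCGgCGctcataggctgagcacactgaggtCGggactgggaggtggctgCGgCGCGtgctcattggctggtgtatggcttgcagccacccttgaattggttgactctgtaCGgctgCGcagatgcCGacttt
The KDM2A window held 40 CG dinucleotides (a motif that reads the same on both strands), the PSIP1 window 23 and the KDM4A window 17. Over all 35116 RefSeq windows of this length, 93.9% held at least 1 and the median was 11. As many as KDM2A were found in 2.16% of windows, as many as PSIP1 in 25.8% and as many as KDM4A in 39.0%. This describes the sequence and says nothing of its methylation in these cells.

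Tag density, the measure used to compare levels, is the number of immunoprecipitated tags per kb of peak per 1000000 filtered tags, summed over the peaks on a gene. It was lower in the knockdown in each of the 6 genes that had peaks in both lists, with intervals that did not overlap. Over these 6 genes the log2 ratio (knockdown over control) had a median of -0.86, which is 1.82 times higher in the control. In 5 of the 6 the control was higher by 1.5 times or more, the exception being KDM2A. Which genes pass that limit depends on the peaks and background used: KDM2A was at 1.52 times with background taken off and at a log2 ratio of -0.78 over its kept control peaks, both past the limit, and PSIP1 was at -0.46 with only the peaks at least 50% inside the gene, short of it. In pairs of peaks with a reciprocal overlap of 50%, KDM2A was at -1.10 and PSIP1 at -0.53. Over all 13963 control peaks overlapped by a knockdown peak the median log2 ratio was -0.66 (quartiles -0.86 and -0.44). Of these, 97.0% were lower and 59.2% were lower by 1.5 times or more. The direction in these genes is thus that of nearly the whole list. Those values are per kept peak, whereas the gene values sum all peaks on a gene. Per kept peak, the 15 on these genes had a median of -0.83, and 10 were lower by 1.5 times or more. A lower density in pooled cells cannot tell fewer marked cells from less of the mark per cell. The bounds of a gene's peaks differ between the lists, and each list's density uses its own bounds. Each density is relative to the tags of its own library, and no outside standard was used for scaling. The ratios therefore do not give the absolute change in the mark. Outside peaks the control had 0.235 and the knockdown 0.337 tags per kb per 1000000. With that background taken off, the median log2 ratio of the 6 genes was -1.10.

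**Figure D2:**
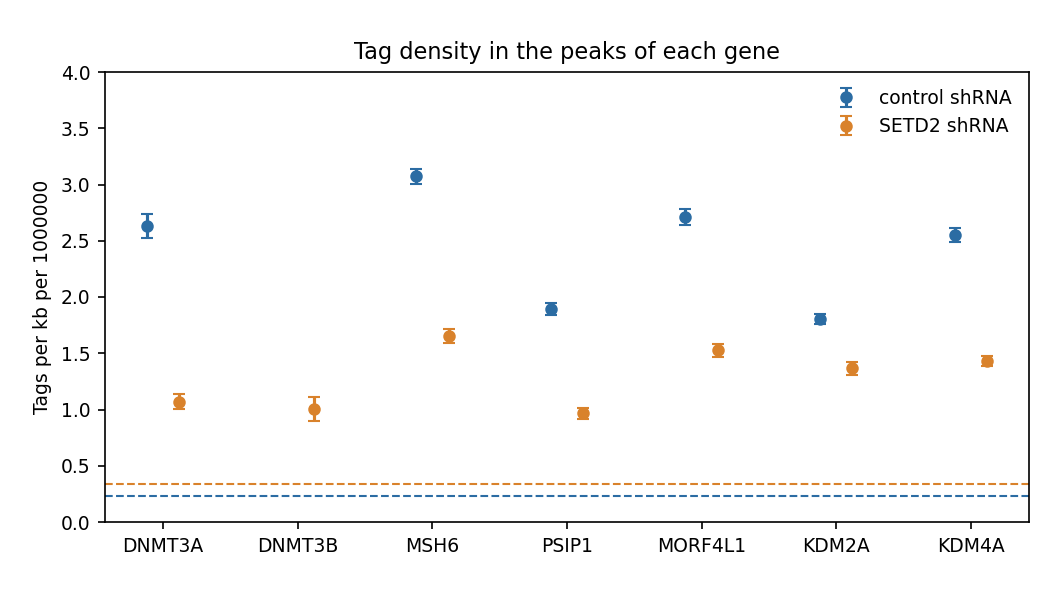
Tag density in the peaks of each gene, in tags per kb for each 1000000 filtered tags; bars are 95% Poisson intervals; dashed lines give the density outside peaks in each condition. Control values run from 1.80 (KDM2A) to 3.07 (MSH6) and knockdown values from 0.966 (PSIP1) to 1.65 (MSH6), all well above the dashed lines at 0.235 and 0.337.

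Among the genes, MSH6 had the highest density in both lists, at 3.07 tags per kb per 1000000 in the control and 1.65 in the knockdown. In the control MORF4L1 (2.71), DNMT3A (2.63) and KDM4A (2.55) followed, and neighbours in that order had overlapping intervals. PSIP1 (1.89) and KDM2A (1.80) were lowest, and their intervals overlapped narrowly. In the knockdown the order was MSH6, MORF4L1 (1.52), KDM4A (1.43), KDM2A (1.37), DNMT3A (1.07), DNMT3B (1.00) and PSIP1 (0.966). DNMT3A thus stood above KDM4A in the control, with overlapping intervals, and below KDM4A and KDM2A in the knockdown, with separate ones. The intervals of DNMT3A and DNMT3B overlapped in the knockdown, as did those of PSIP1 with both and those of KDM4A with MORF4L1 and KDM2A. HepG2 chromosomes differ in copy number and densities were not corrected for it, so its part in the order between genes was not tested. All these densities are of whole peaks, including the parts outside a gene. Of the control peaks, 40.6% of that on MSH6, 52.2% of that on MORF4L1 and 22.0% of the last on PSIP1 lay inside the gene. With only peaks at least 50% inside the gene, 5 genes had a control peak and MSH6 had none. The order is therefore one of peaks over the genes, not of the genes alone.

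DNMT3A, on chromosome 2 from 25455830 to 25564784 (109.0 kb, minus strand), had called peaks only near the end of this span. RefSeq lists 6 start windows for DNMT3A. Which start is used in these cells, and where the others lie relative to the peaks, was not analysed. A single control peak, from 25454397 to 25474363, covered 17.0% of the span, all of it in the last 2 of the 10 bins, and ran 1.43 kb past the gene end. It held 2513 tags, a density of 2.63 (2.53 to 2.73), and its fold enrichment over input, the authors' value, was 13.07, above 94.3% of control peaks. The first 8 bins of the gene had no peak in either list, and neither did the 100 kb before its start. In the knockdown the same end carried peaks of 11.2 kb with 855 tags and 3.67 kb with 208 tags, separated by a short gap, at densities of 1.14 (1.07 to 1.22) and 0.845 (0.734 to 0.968). Together they held 1.07 (1.00 to 1.13), so the control was 2.46 times higher (2.29 to 2.65), the largest ratio of the 6 genes. The knockdown peaks still lay over 80.1% of the length that was covered within the gene in the control. Their FDRs were 6.12% and 69.2%, and their fold enrichments of 4.69 and 3.50 ranked above 77.5% and 40.4% of knockdown peaks.

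DNMT3B, on chromosome 20 from 31350191 to 31397162 (47.0 kb, plus strand), was the only one of the 7 with no control peak. The knockdown list held 1 peak over it, of 5.48 kb from 31386488 to 31391971, which lay 36.3 to 41.8 kb from the gene start and covered 11.7% of the span. That peak held 368 tags, a density of 1.00 (0.901 to 1.11). Its fold enrichment of 2.66 ranked above 5.62% of knockdown peaks, low in the list. Its density ranked above 67.0% and its width above 73.7% of them, and its FDR of 66.4% was near the list's median of 68.9%. With a fold enrichment of 5 or more or an FDR of 5% or less neither list had a peak over DNMT3B. It was the only one of the 17 knockdown peaks over these genes that overlapped no control peak: 16 did (94.1%, exact interval 71.3 to 99.9%), against 83.0% of all knockdown peaks. Peaks of 1 gene are not replicates, so no difference from the whole list is claimed.

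The surroundings of DNMT3B were marked in the control. Within 100 kb before its start the control had 5 peaks covering 23.1 kb, against 1 peak of 3.56 kb in the knockdown. A control peak of 39.0 kb lay 11.4 kb past the gene end, from 31408534 to 31447580, where RefSeq has MAPRE1 as the next protein-coding gene. It held 7032 tags at a density of 3.76 (3.67 to 3.85), close to the 3.74 (3.60 to 3.88) of the densest peak on the 7 genes, and had a fold enrichment of 15.65. No knockdown peak overlapped it. Tags at positions without a call were not analysed here, so the missing call gives no level for the knockdown. On chromosome 20 as a whole the knockdown peaks covered 29.4% of the control length, the lowest share among the 6 chromosomes that carry these genes.

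MSH6, on chromosome 2 from 48010221 to 48034092 (23.9 kb, plus strand), lay almost wholly under 1 control domain. The peak, from 48011218 to 48067618, was 56.4 kb wide, wider than 99.8% of control peaks, and covered 95.8% of the gene. It held 8298 tags, a density of 3.07 (3.01 to 3.14), with its summit 20.4 kb from the gene start. It ran 33.5 kb past the gene end, towards FBXO11, the next gene in RefSeq, which is transcribed towards MSH6. Of the peak's length 40.6% was inside MSH6, so its tags cannot be given to MSH6 alone.

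In the knockdown a peak of 24.0 kb with 2655 tags covered 75.5% of MSH6. It began 5.85 kb from the start, so that the first 2 bins of the gene had no peak, and its summit, 20.2 kb from the start, lay close to the control summit. Its density was 1.65 (1.59 to 1.72), so the control was 1.86 times higher (1.78 to 1.94). Knockdown peaks of 9.86 and 14.4 kb followed past the gene end, at densities of 1.23 and 1.21. With all 3 knockdown peaks set against the whole control peak the log2 ratio was -1.10 in place of -0.89. The peak's score, minus 10 times the log10 of the caller's p-value, was 101.52 and its FDR 79.1%, although its fold enrichment of 5.16 ranked above 84.5% of knockdown peaks.

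MORF4L1, on chromosome 15 from 79165172 to 79190075 (24.9 kb, plus strand), showed the same layout. A control peak of 39.6 kb from 79169394 to 79209026, with 5143 tags, covered 83.0% of the gene and ran 19.0 kb past its end, towards CTSH, the next gene in RefSeq, on the opposite strand. Its density was 2.71 (2.64 to 2.79) and its fold enrichment of 17.15 was the highest among the control peaks on the 7 genes. A single knockdown peak of 28.2 kb with 2880 tags remained, covering 71.5% of the gene and 71.1% of the control peak. Its density was 1.52 (1.47 to 1.58), so the control was 1.78 times higher (1.70 to 1.86). The knockdown peak began 7.11 kb from the gene start and the control peak 4.22 kb, and both summits lay near 18.7 and 18.6 kb. In both lists the last 7 bins of MORF4L1 were covered in full.

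PSIP1, on chromosome 9 from 15464064 to 15511003 (46.9 kb, minus strand), carried many short peaks in place of 1 domain. In the control 9 peaks covered 75.5% of the gene, and in the knockdown 6 peaks covered 48.3%. The first control peak, 1.18 to 8.59 kb from the start, had a density of 1.62 (1.49 to 1.76), and the knockdown peak inside it 1.10 (0.990 to 1.21). The next pair of control peaks, 9.21 to 13.5 kb from the start, were the weakest on the gene, at densities of 0.837 and 0.914 and FDRs of 13.6% and 14.7%, and no knockdown peak overlapped them. The remaining 7 of the 9 were overlapped by a knockdown peak. One of those, 36.4 to 40.3 kb from the start, was touched over 2.43% of its length.

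The last control peak on PSIP1 differed from the rest. It was 29.1 kb wide with 3417 tags, at a density of 2.45 (2.37 to 2.54), and 22.0% of it was inside PSIP1. It ran 22.7 kb past the gene end, with its summit beyond the gene, towards SNAPC3, which RefSeq places next and on the opposite strand. The knockdown had 3 peaks over it, of which the 1 that reached PSIP1 was 7.45 kb wide with a density of 0.958 (0.875 to 1.05). Summed over the peaks on the gene, the density was 1.89 (1.84 to 1.94) in the control and 0.966 (0.918 to 1.02) in the knockdown, 1.96 times higher in the control (1.85 to 2.07). With only the peaks that lay at least 50% inside the gene, the log2 ratio was -0.46 in place of -0.97. The end domain set against the 3 knockdown peaks over it had a log2 ratio of -1.14, and the other 6 kept control peaks on the gene had ratios from -0.78 to -0.44.

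**Figure D3:**
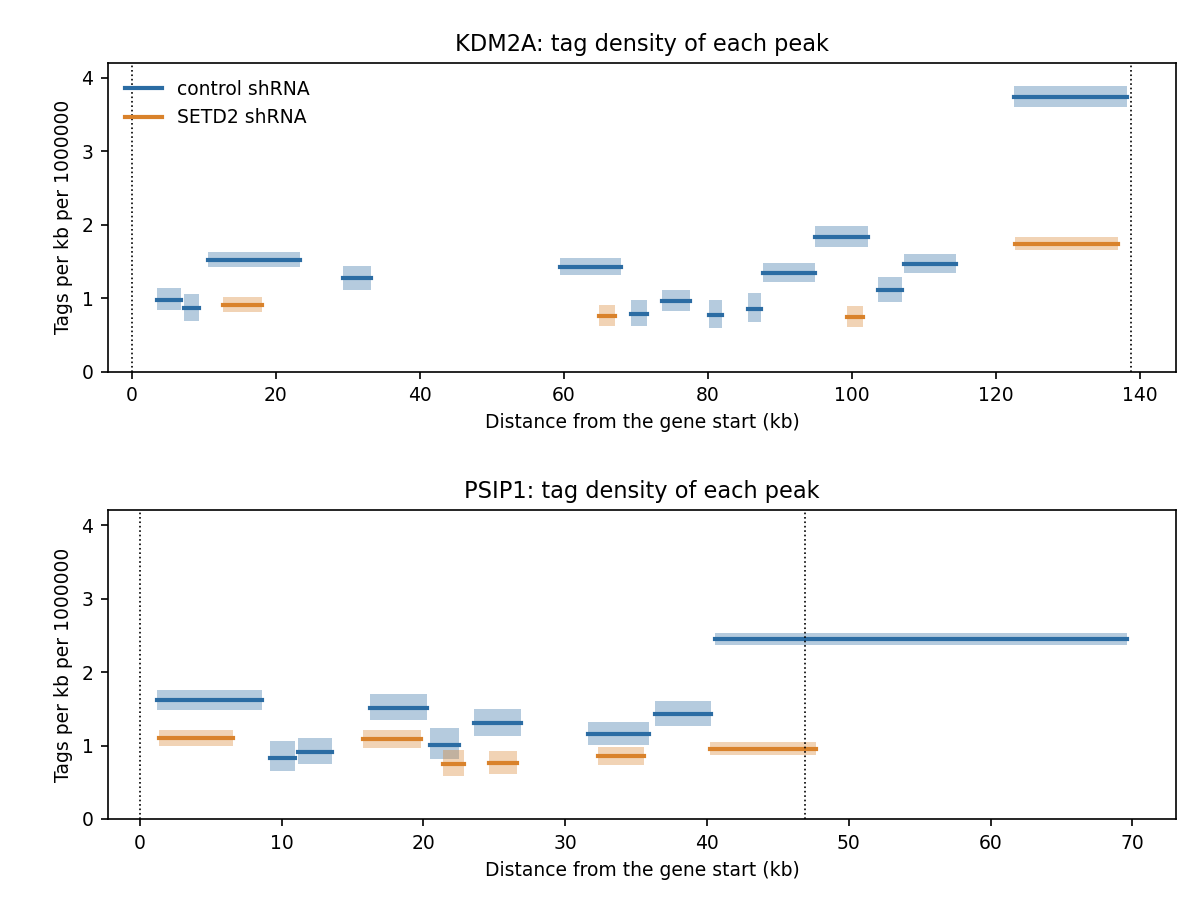
Tag density of each peak on KDM2A and PSIP1 against its distance from the gene start in kb, as a line from the peak's near to its far edge with a shaded 95% Poisson interval; dotted lines mark the gene start and end. The control peak at the end of KDM2A stands at 3.74 and the knockdown peak over it at 1.74, while the other control peaks on KDM2A lie between 0.764 and 1.83.

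KDM2A, on chromosome 11 from 66886740 to 67025558 (138.8 kb, plus strand), was the longest of the 7 and lost the most covered length. Control peaks numbered 14 and covered 58.7% of the gene, and knockdown peaks numbered 4 and covered 17.5%. The control peaks formed a group in the first 33.2 kb, a stretch with no peak until 59.5 kb, a second group from there to 114.4 kb, and a peak of 15.8 kb at the gene end. That last peak, from 67009222 to 67025051, held 2835 tags at a density of 3.74 (3.60 to 3.88), the highest of the 27 control peaks, and ended inside the gene. The other 13 had densities from 0.764 to 1.83.

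The knockdown kept the end of KDM2A and little of its middle. The knockdown peak at the end, of 14.3 kb with 1667 tags, overlapped 90.2% of the control peak there and had a density of 1.74 (1.66 to 1.83), the highest of the 17 knockdown peaks. It had a fold enrichment of 7.68, a score of 2163.05 and an FDR of 0%, and was the 1 knockdown peak on the 7 genes with an FDR of 5% or less, where 5.30% of all knockdown peaks had one. Its density was lower than the control's by 1.10 on the log2 scale. The other 3 knockdown peaks, 2.28 to 5.42 kb wide, had densities of 0.739 to 0.906 and each lay inside a control peak. They overlapped 42.3, 26.9 and 31.4% of the lengths of those control peaks. Of the 14 control peaks 10 had no knockdown peak over them. Their densities ran from 0.764 to 1.47 and their fold enrichments from 2.72 to 9.78, and the FDR of 5 of them was at most 5%. The 4 that were overlapped had fold enrichments of 8.01 to 16.26. The strongest without a call, 107.3 to 114.4 kb from the start, held 504 tags at 1.47 (1.34 to 1.60).

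Over the whole of KDM2A the density was 1.80 (1.76 to 1.85) in the control and 1.37 (1.31 to 1.42) in the knockdown, 1.32 times higher in the control (1.26 to 1.38), the smallest ratio of the 6 genes. This value sets all 14 control peaks against the knockdown peaks that were still called, which are mostly the strong end peak. With the control peaks that had no knockdown call left out, the log2 ratio was -0.78 in place of -0.40, and for the end peak alone -1.10. Of the control peaks over the 2 genes with more than 1, KDM2A kept 4 of 14 (28.6%, exact interval 8.39 to 58.1%) and PSIP1 7 of 9 (77.8%, 40.0 to 97.2%), against 39.5% of all control peaks, 36.3% on chromosome 11 and 39.9% on chromosome 9. The intervals overlap, and peaks of 1 gene share their library and are not replicates, so no difference between these genes is claimed.

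KDM4A, on chromosome 1 from 44115829 to 44171186 (55.4 kb, plus strand), was covered almost end to end. A control peak of 54.3 kb from 44117732 to 44172057, with 6632 tags, covered 96.6% of the gene and ended 0.870 kb past it, so this wide domain matched a single gene closely. Its density was 2.55 (2.49 to 2.61), and 98.4% of it lay inside the gene. The knockdown list broke it into peaks of 23.5 kb with 2362 tags and 23.7 kb with 2165 tags, with a gap from 26.0 to 31.7 kb after the start. Together they covered 85.3% of the gene, the largest share in the knockdown, at a density of 1.43 (1.39 to 1.47), so the control was 1.78 times higher (1.72 to 1.85).

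The score of the KDM4A calls did not follow their enrichment. The first knockdown peak had a fold enrichment of 6.68, above 95.04% of the list, but a score of 51.23, close to the lowest score of 50 in the list, and an FDR of 92.5%. The second, with a fold enrichment of 7.12, had a score of 699.97 and an FDR of 10.9%. With a score of 100 or more the first was lost, and the covered share of KDM4A then fell by 53.8 percentage points between control and knockdown in place of 11.3. Within 100 kb before KDM4A, towards PTPRF, peaks covered 64.1 kb in the control and 24.2 kb in the knockdown. Past its end, towards ST3GAL3, they covered 13.8 kb in the control and 0.012 kb in the knockdown, the last bases of the peak on KDM4A.

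**Figure D4:**
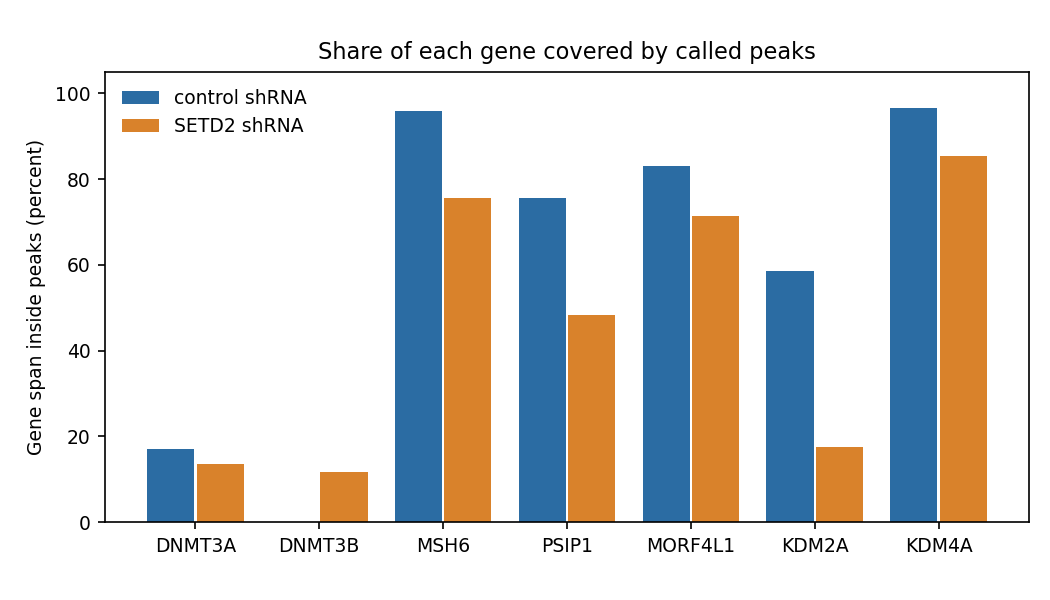
Share of each gene span inside called peaks, in percent, for the control shRNA and SETD2 shRNA lists, each 1 pooled library. MSH6 and KDM4A are highest in the control at 95.8% and 96.6%, KDM2A shows the widest gap with 58.7% against 17.5%, and DNMT3B has a bar in the knockdown alone.

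Of the 27 control peaks on the 7 genes, 15 were overlapped by a knockdown peak, which is 55.6% (exact interval 35.3 to 74.5%), against 39.5% of all control peaks. That share joins 4 of 14 on KDM2A, 7 of 9 on PSIP1 and 4 of 4 on the other genes. The interval counts peaks of 1 gene as if they were independent replicates, which they are not. No difference from the whole list is therefore claimed. Kept peaks tended to be the more enriched ones, here as in the whole list, with exceptions. A PSIP1 peak with a fold enrichment of 3.84 was kept, while KDM2A peaks at 7.33 and 9.78 were not. Each of the 6 control peaks in the top decile of the control list by fold enrichment was kept, 1 for each gene with a control peak, against 90.4% of all control peaks in that decile. Of the 9 in the lower 5 deciles 1 was kept, and in those deciles 8.34 to 21.2% of all control peaks were. A weaker peak falls below a calling limit more readily, so these shares do not give the amount of mark lost. Of the 15 kept, the knockdown density was lower in 15, with a median log2 ratio of -0.83, and lower by 1.5 times or more in 10.

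The 6 kept peaks of the top decile had log2 ratios from -1.30 (DNMT3A) to -0.83 (MORF4L1), with a median of -1.10. All 3199 kept control peaks of that decile had a median of -0.92 and quartiles of -1.101 and -0.77. MORF4L1, KDM4A (-0.83) and MSH6 (-1.097) were inside the quartiles. KDM2A (-1.104) was just below the lower one, and PSIP1 (-1.14) and DNMT3A were further below it. Chromosome medians differed too. They were -0.80 on chromosome 2, which carries DNMT3A and MSH6, and -0.50 on chromosome 1, which carries KDM4A, over all kept control peaks there.

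**Figure D5:**
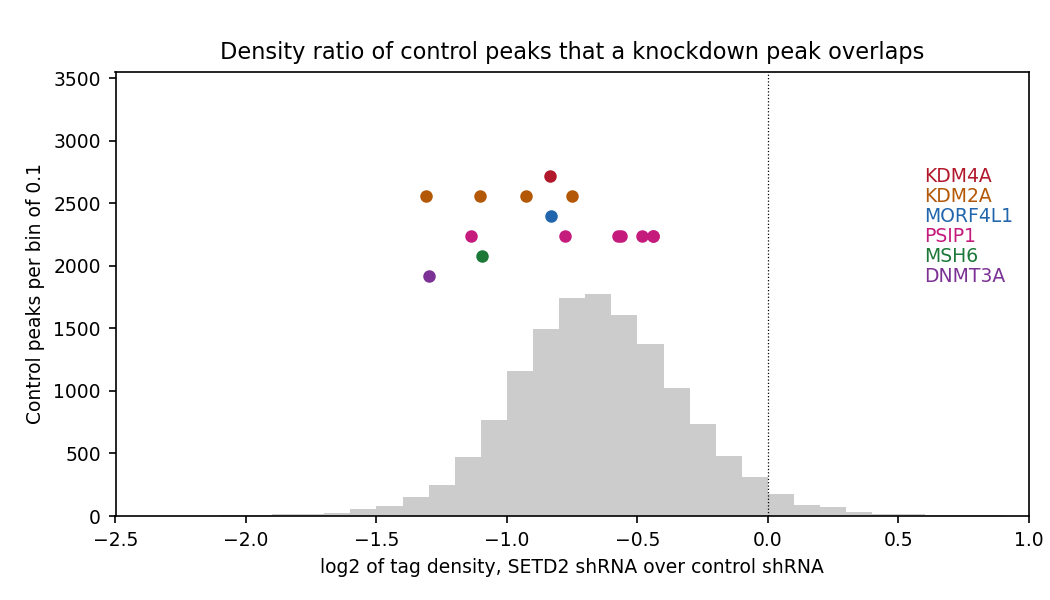
Histogram of the log2 ratio of tag density, SETD2 shRNA over control shRNA, for the 13963 control peaks that a knockdown peak overlaps, in bins of 0.1, with the 15 kept control peaks on the 6 genes as points above it, 1 row per gene, whose height carries no value. All 15 points lie below 0, where 97.0% of the histogram lies too.

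Control peaks of 20 kb or more made up 4 of the 27 on these genes (MSH6, PSIP1, MORF4L1 and KDM4A) against 5.86% of the whole list. Those on MSH6, PSIP1 and MORF4L1 ran 19.0 to 33.5 kb past the gene end, and RefSeq places the next gene there on the opposite strand in each case. No peak of either list lay in the 100 kb before the start of DNMT3A, MSH6, PSIP1, MORF4L1 or KDM2A. The 100 kb past the end of MSH6, PSIP1, MORF4L1 and KDM2A held 31.8 to 58.7 kb of control peaks and 8.40 to 32.7 kb of knockdown peaks, so the fall in covered length went on beyond these genes.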

How the data were processed

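H3K36me3 immunoprecipitates and inputs of HepG2 cells with a control or SETD2 shRNA were used, 2 replicates in each of 4 groups. The sources do not state whether replicates were separate cultures. Bowtie 1.1.2, FastQC 0.11.5 and the hg19 build are named in the submitters' processing notes. Peaks were called with MACS 1.4.2 on merged replicates against merged input, with a p-value limit of 1e-05 and 1 duplicate tag per position, per the file headers. The deposited tag counts are raw counts per peak. The deposited fold enrichment is a ratio over local input background, the deposited score is minus 10 times log10 of the caller's p-value, and the deposited FDR is in percent. The shorter deposited lists hold the peaks with an FDR of 5% or less, checked peak by peak.

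Gene spans came from the definition of the gene set, strands and neighbours from RefSeq on GRCh38.p14, by symbol. The members and lists were chosen with earlier results of these data known. All 7 genes are named by rule, and other genes only as neighbours. Overlap was 1 bp or more. Tag density was scaled to 47880817 and 67053273 filtered tags. Densities have exact Poisson intervals, ratios exact conditional binomial and shares Clopper-Pearson intervals, at 95%. Other genes of the pathway, marker genes and exons were not analysed here, since no annotation on hg19 was used. Alternatives were other limits, overlaps, spans, depths and matchings. Calculations used Python 3.11.15 (SciPy 1.17.1, NumPy 2.4.6, pandas 2.3.3; matplotlib 3.10.9 for plots); the routines were tested on simulated data.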

Additional observations from a re-analysis of the deposited data

How the results depend on the processing

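With an FDR of 5% or less, and so with the shorter lists, 1 gene (KDM2A) had a knockdown peak, the control covered 48.2% of the spans and the knockdown 3.20%, and 5.26% of control peaks were kept (1 of 19), against 6.35% over the whole lists at that limit. With a score of 100 or more the covered shares were 49.4% and 25.9%. With a fold enrichment of 5 or more they were 46.8% and 22.7%, and 33.3% of control peaks were kept (6 of 18). Fewer peaks enter under these limits. With spans extended by 5 kb the covered shares were 48.7% and 32.0%. The median log2 density ratio was -1.10 with the density outside peaks subtracted and -0.97 in pairs with a reciprocal overlap of 50% (4 genes). The subtraction took 0.235 from control and 0.337 from knockdown densities, which by construction lowers a ratio already below 0. MSH6 and KDM4A had no such pair. In those pairs KDM2A stood at -1.10 in place of -0.40, the value of its end peak alone. All 27 density ratios per gene under other settings were below 0, from -1.71 to -0.38. These are not 27 separate checks. Several repeat the main value because the same peaks enter, and taking all tags as depth moves every ratio by the same small amount. The setting that used all knockdown peaks over kept control peaks was chosen after the data were seen. No paired analysis was possible because the deposited peaks come from merged replicates, and for the same reason no replicate could be left out in turn.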
